A study of Mus musculus with 36 samples.

Results

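The genomic neighbourhoods of 9 transcription factor genes of the Runx and Ets families were described here: Runx1, Runx2 and Runx3, their common partner Cbfb, and the Ets factors Ets1, Ets2, Fli1, Erg and Elf1. The members were DNase I hypersensitive sites (DHS), short stretches of chromatin that DNase I cuts readily. A DHS was a member where it overlapped the body of one of these genes in GENCODE vM21 or the 20 kb on either side, which gave 89 of the 52788 DHS in the data, each assigned to a single gene. The libraries came from B3, a mouse pre-B cell line. The Ikaros line was B3 transduced with an MSCV retrovirus for HA-Ikaros-ERt2 followed by IRES-GFP, in which the ERt2 hormone-binding domain lets 4-hydroxytamoxifen (4-OHT) move the Ikaros fusion into the nucleus. The Control line carried, per the study's methods, the ERt2, IRES and GFP vector without Ikaros, so both lines hold the viral vector, the hormone-binding domain and GFP, and each is a GFP-sorted, expanded population. Both were sampled at 0, 2, 6, 12, 18 and 24 h, which gave 12 groups of 3 replicates and 36 libraries. 4-OHT was used at 0.5 uM. By the methods the 0 h samples were untreated and came from separately obtained cells, although each sample's label lists 4-OHT. The labels also give the 0 h samples the same batch numbers as the later ones. By the methods, a comparison of 0 h with a later time also compares separately obtained cells.

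Runx proteins bind DNA through the Runt domain as heterodimers with Cbfb, which does not touch DNA itself and raises the affinity of the complex. Ets proteins share the Ets domain, which reads a GGAA core, and Runx and Ets factors are well known to bind neighbouring sites at lymphoid enhancers. Runx1 and Cbfb are needed for early B cell development, Ets1 and Elf1 are lymphoid Ets factors, and Fli1 and Erg are closely related factors of stem cells, megakaryocytes and endothelium. Ikaros, the factor induced in this system, is a zinc finger protein that binds sites with a GGGAA core and drives pre-B cells out of the cell cycle.

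Values were log2 of normalised read density per DHS after the authors' noise correction, and library medians lay between 3.9 and 4.11. Of the marker genes checked for a promoter DHS (within 1000 bp of an annotated start), 10 of 12 B lineage genes had one, among them Pax5, Ebf1, Cd79a and Igll1, against 1 of 9 T lineage genes (Lck), 0 of 6 myeloid genes, 2 of 6 erythroid and megakaryocytic genes (Klf1 and Pf4) and 0 of 2 muscle genes. Rag2 had none. Of the last pair found, the Klf1 promoter differed by 0.65 ± 0.19 at 0 h (limma adjusted p = 0.0237) with a change of -1.09 ± 0.27 to 24 h (0.0205), and that of Pf4 by -0.23 ± 0.45 with a change of 0.79 ± 0.64, neither of which passed. The part of cells of that kind in the results was not tested. In bulk libraries a DHS that is open in fewer cells and one that is less open in each cell cannot be told apart.

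The loci differed in how densely they held DHS. Runx3 (chr4:135120652-135177990, + strand, mm10) had 11 DHS, or 11.3 per 100 kb of its window, and Fli1 (chr9:32422204-32542861, - strand) had 15, or 9.34 per 100 kb. Elf1 (chr14:79481194-79582494, + strand) had 10 DHS, Cbfb (chr8:105170674-105217989, + strand) had 6, Ets2 (chr16:95702075-95721051, + strand) had 4, Runx1 (chr16:92601466-92826149, - strand) had 14, and Runx2 (chr17:44495987-44814797, - strand) had 17. Per 100 kb these loci held 7.08, 6.87, 6.78, 5.29 and 4.74 DHS in that order. Erg (chr16:95359169-95586593, - strand) had 8 DHS and none within 1000 bp of any of its annotated starts, and Ets1 (chr9:32636221-32757820, + strand) had 4, so that these genes held 2.99 and 2.48 DHS per 100 kb. The mean over all chromosomes was 1.94 DHS per 100 kb, below the value of each locus. Fli1 and Ets1 are neighbours on chromosome 9 and are transcribed away from each other.

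**Figure D1:**
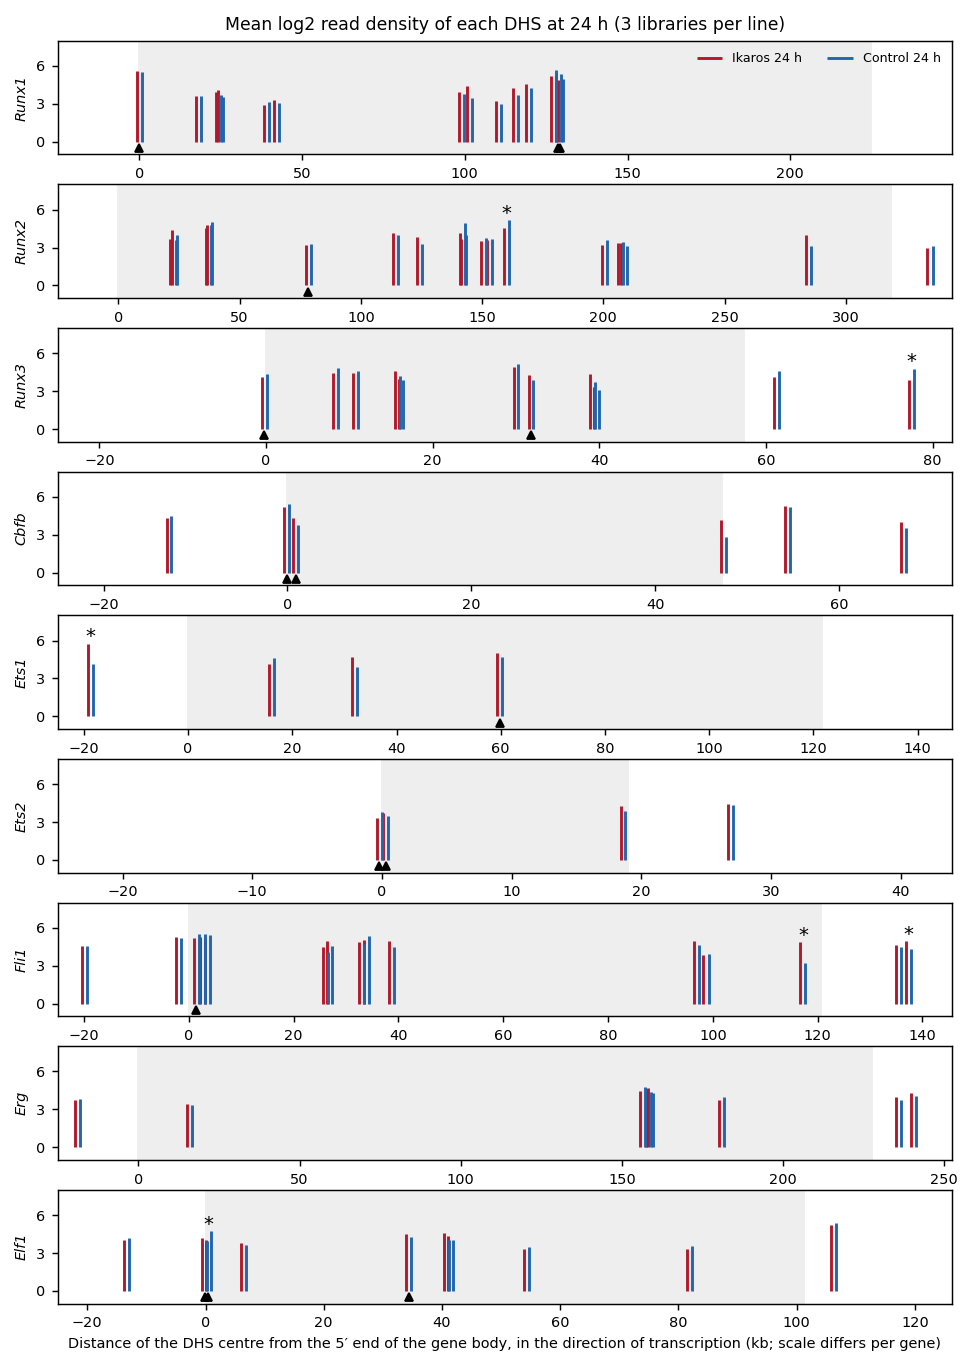
Mean log2 read density (y axis) of each DHS of the 9 loci at 24 h against its distance in kb from the 5′ end of the gene body (x axis, scale differs per gene), with red and blue bars for the 3 Ikaros and 3 Control libraries, grey for the gene body, triangles for DHS within 1000 bp of a start of that gene and stars for differences with a limma adjusted p under 0.05. Of the 89 DHS, 6 carry a star, and none of the 14 DHS of Runx1 does.

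By position, 23 of the 89 DHS (25.8%) were promoter DHS of some gene, 51 (57.3%) lay in introns, 5 (5.62%) in exons and 10 (11.2%) between genes. Over all DHS the shares were 25.9%, 35.4%, 5.77% and 32.9%, so the intronic share was larger here, as a rule that follows gene bodies leads to. The median level was 4.17 against 3.95 over all DHS. Within the set, levels averaged over all libraries ran from 3.03, at a DHS downstream of Runx2, to 5.58 at the upstream promoter of Runx1. The highest member means after it were 5.47 in an intron of Fli1 at +2.6 kb, 5.42 at the inner Runx1 start and 5.39 at the Fli1 promoter and at Runx1 +127.3 kb. The median SD between replicates was 0.3, against 0.35 over all DHS. Distances are given from the 5′ end of the gene body in the direction of transcription to the centre of the DHS.

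The sequences of the DHS that the results turn on are shown for the central 200 bases, as + strand sequence of mm10 from the RefSeq copy of the assembly. Capitals mark exact matches, on either strand, to a Runx motif (TGTGGT or ACCACA), an Ets motif (GGAAGT or ACTTCC) or an Ikaros motif (TGGGAA or TTCCCA), where an Ets and an Ikaros match can share bases. The first pair are the DHS with the largest differences between the lines at 24 h, at Ets1 and Fli1. The Ets1 one spans chr9:32617470-32617669 and holds 1 Runx match, and the Fli1 one spans chr9:32425571-32425770 and holds a Runx and an Ets match.
Ets1 -18.7 kb: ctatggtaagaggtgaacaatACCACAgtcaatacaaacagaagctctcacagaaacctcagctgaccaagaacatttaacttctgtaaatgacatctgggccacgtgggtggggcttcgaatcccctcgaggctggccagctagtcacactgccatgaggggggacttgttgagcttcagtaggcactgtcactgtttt
Fli1 +117.2 kb: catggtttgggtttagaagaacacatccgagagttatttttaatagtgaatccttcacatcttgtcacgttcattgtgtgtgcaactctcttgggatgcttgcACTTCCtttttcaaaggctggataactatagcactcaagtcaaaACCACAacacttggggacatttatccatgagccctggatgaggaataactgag
The next 3 are the other DHS past the threshold at 24 h outside promoters, downstream of Fli1 (chr9:32405389-32405588), downstream of Runx3 (chr4:135198052-135198251) and in an intron of Runx2 (chr17:44654666-44654865).
Fli1 +137.4 kb: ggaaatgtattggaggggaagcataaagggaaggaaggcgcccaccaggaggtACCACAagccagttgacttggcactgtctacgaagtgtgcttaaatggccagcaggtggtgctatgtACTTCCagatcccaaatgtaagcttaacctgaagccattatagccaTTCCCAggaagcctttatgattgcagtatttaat
Runx3 +77.5 kb: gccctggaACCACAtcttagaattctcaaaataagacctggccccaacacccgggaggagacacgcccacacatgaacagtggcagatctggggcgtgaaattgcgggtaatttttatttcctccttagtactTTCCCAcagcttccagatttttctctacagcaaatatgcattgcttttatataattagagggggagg
Runx2 +160.0 kb: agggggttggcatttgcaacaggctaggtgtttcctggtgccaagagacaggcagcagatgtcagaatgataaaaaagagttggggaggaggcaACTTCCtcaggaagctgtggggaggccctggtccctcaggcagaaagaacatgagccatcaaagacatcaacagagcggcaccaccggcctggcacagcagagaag
The last pair are promoter DHS of the Runx complex, of Runx3 (chr4:135120379-135120578, with 2 Runx matches) and of Cbfb (chr8:105170441-105170640, with an Ets match), shown because their matches are to the motifs of the families described here. The Runx3 window also holds an Ikaros match.
Runx3 -0.2 kb: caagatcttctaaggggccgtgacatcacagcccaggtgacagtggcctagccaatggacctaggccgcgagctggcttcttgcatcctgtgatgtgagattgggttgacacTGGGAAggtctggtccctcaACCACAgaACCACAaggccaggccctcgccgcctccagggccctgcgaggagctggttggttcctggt
Cbfb -0.1 kb: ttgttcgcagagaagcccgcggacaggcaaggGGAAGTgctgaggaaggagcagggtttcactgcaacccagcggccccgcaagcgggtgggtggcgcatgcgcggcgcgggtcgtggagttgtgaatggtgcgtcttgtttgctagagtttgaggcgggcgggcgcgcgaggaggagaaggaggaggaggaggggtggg

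Over the 89 windows, 35 (39.3%) held the Ets motif, 26 (29.2%) the Ikaros motif and 23 (25.8%) the Runx motif. Over all DHS the same windows held them in 23.2%, 17.2% and 21.6%. Of the 23 promoter DHS, 10 (43.5%) held the Ets motif, against 25.2% of all promoter DHS, and of the 66 other DHS 25 (37.9%) did, against 22.5% of all others. A match is a description of the letters in the window and no evidence of binding. Of the 5 DHS outside promoters that passed the threshold at 24 h, 4 held the Runx motif, which describes DHS chosen for their difference and was not tested.

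The first question was how far the lines differed at these loci before and after induction. At 0 h, 11 of the 89 DHS (12.4%) passed a limma adjusted p of 0.05, against 12.9% of all DHS, with 10 higher in Ikaros cells (11.2%, against 7.81% of all DHS) and 1 lower (1.12%, against 5.04%). At 2 h, 2 DHS (2.25%) passed, against 0.195% of all DHS. Both were higher, against 0.17% of all DHS higher and 0.0246% lower. With the replicate number as a block, 1 passed at 2 h. At 6 h, 3 DHS (3.37%) passed, all higher, against 0.578% of all DHS, 0.422% higher and 0.155% lower. At 12 h, 5 DHS (5.62%) passed, against 1.31%, with 2 higher (2.25%, against 0.887%) and 3 lower (3.37%, against 0.428%). At 18 h, 2 DHS (2.25%) passed, both higher, against 0.699%, 0.5% higher and 0.199% lower. At 24 h, 6 DHS (6.74%) passed, against 1.33%, with 3 higher (3.37%, against 0.809%) and 3 lower (3.37%, against 0.517%). Scaling moved these splits, and the shares of all DHS under the other settings, here and below, were not read. With quantile normalization, 3 were higher and 1 lower at 0 h and at 12 h, and 3 and 3 at 24 h, with one Runx2 DHS in place of another. With level, GC and width trends removed, that is, with each library corrected for how its values run with these properties of the DHS, 2 were higher and 0 lower at 0 h and at 12 h, and 3 and 0 at 24 h, so no lower call was left under that setting. The share at 0 h was thus near that of all DHS, whereas at each later time the share was above it, on counts of 2 to 6 DHS.

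**Figure D2:**
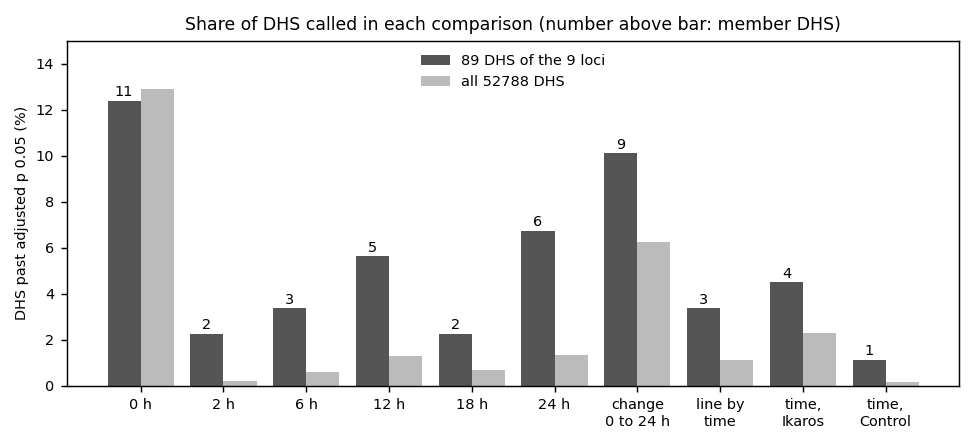
Share of DHS in percent (y axis) past a limma adjusted p of 0.05 in each of the 10 comparisons (x axis), with dark bars for the 89 DHS of the 9 loci, numbers of them above, and light bars for all 52788 DHS. The dark and light bars are near each other at 0 h (12.4% and 12.9%), and the dark bars are above the light ones in the other 9 comparisons, on counts of 1 to 9 DHS.

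The members that differed were few and scattered over the loci rather than whole loci. The median difference over the 89 DHS was 0.16 at 0 h and 0.09 at 24 h, against -0.06 and 0.06 over all DHS. Over the comparisons, 17 of the 89 DHS passed at least once, and 8 did so at one of the 5 times after 0 h. The matching shares of all DHS were not counted, so these counts describe the members and cannot be set against the background. At 0 h the 3 Ikaros and 3 Control values did not overlap at 22 of the 89 DHS (24.7%), against 23.6% of all DHS, and at 24 h at 25 (28.1%), against 25.5%, so by this count the loci were near the background. The change of the line difference from 0 h to 24 h passed at 9 DHS (10.1%), against 6.26% of all DHS, with 2 rises (2.25%, against 2.85%) and 7 falls (7.87%, against 3.4%). That split was 1 and 4 with quantile normalization and 0 and 0 with the trends removed, where 24 DHS (27.0%) had an unadjusted p under 0.05 in the limma fit without that removal, against 25.1% of all DHS. The interaction of line and time passed at 3 DHS (3.37%, against 1.1%), and at 1 with the replicate number as a block. Change over time passed at 4 DHS in Ikaros cells (4.49%, against 2.29%) and at 1 in Control cells (1.12%, against 0.148%), the latter at 0 with the block, where 9 DHS (10.1%) had an unadjusted p under 0.05 without it, against 12.6% of all DHS.

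**Figure D3:**
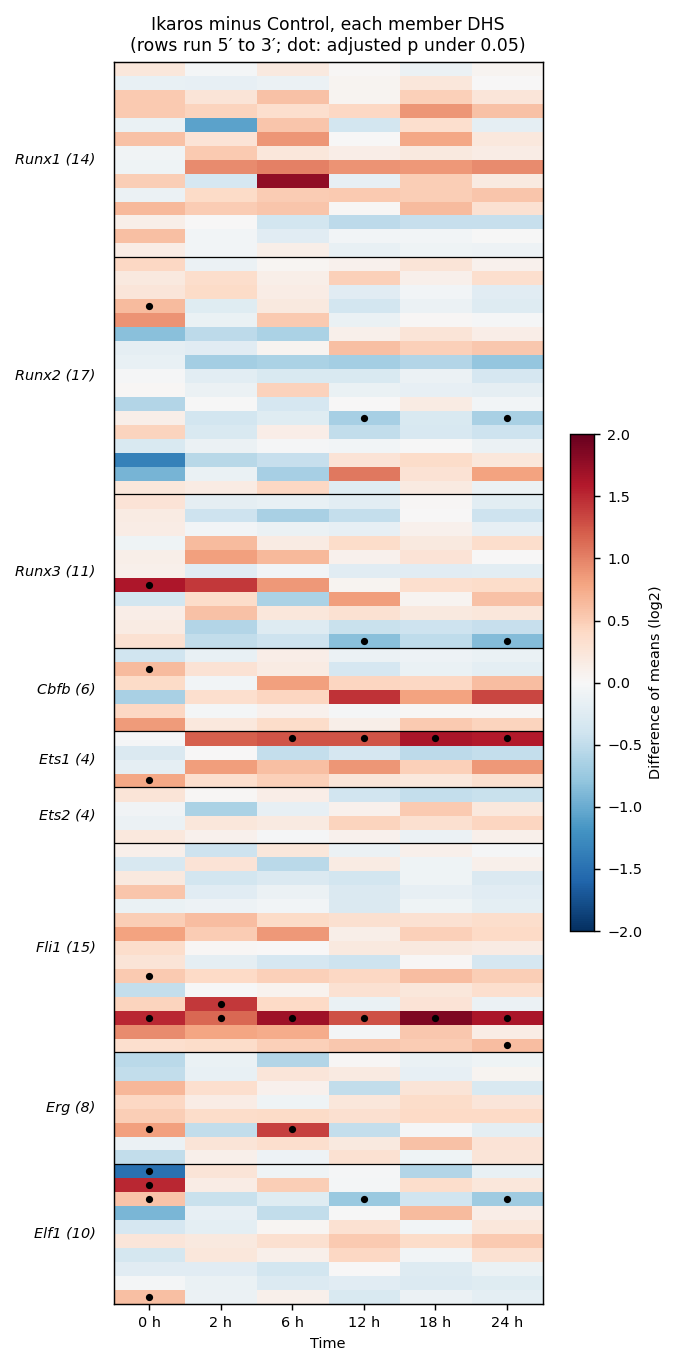
Difference of the mean log2 read density, Ikaros minus Control (colour, red higher and blue lower in Ikaros cells), of each of the 89 DHS (rows, 5′ to 3′ within a gene, number of DHS in brackets) at 6 times (columns), with a dot where the limma adjusted p is under 0.05. Dots at all 6 times stand in 1 row, the Fli1 DHS at +117.2 kb, and dots from 6 h on in 1 row, the Ets1 DHS at -18.7 kb.

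Ets1, an Ets factor of lymphocytes, had a DHS that passed the test between the lines at later times and not at 0 h. The DHS at -18.7 kb (chr9:32617483-32617655, 172 bp), in an intron of the long noncoding RNA gene Gm47680 and between Fli1 and Ets1, was level between the lines at 0 h and 3.0-fold higher in Ikaros cells at 24 h. At 0 h the Ikaros libraries read 4.26, 4.22 and 4.65 and the Control libraries 4.45, 4.12 and 4.61, which overlapped. At 2 h the Ikaros libraries read 5.35, 5.45 and 4.89 and the Control libraries 3.95, 3.52 and 4.65. Already at 2 h the groups did not overlap, and the difference of 1.19 ± 0.27 (SE) had an adjusted p of 0.0564. At 24 h the Ikaros libraries read 6.0, 5.79 and 5.48, and the Control libraries 4.12, 4.4 and 3.99. All Ikaros libraries at 24 h were above all Control libraries, and also above all Ikaros libraries at 0 h. The differences were 1.26, 1.26, 1.64 and 1.58 at 6, 12, 18 and 24 h, each ± 0.27, with limma adjusted p of 0.0271, 0.0205, 0.0031 and 0.00346.

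In Ikaros cells the mean of the Ets1 -18.7 kb DHS was 4.38 ± 0.24 (SD, n = 3) at 0 h, 5.23 ± 0.3 at 2 h and 5.75 ± 0.26 at 24 h. Control cells stayed between 3.83 and 4.44 at all 6 times. The line difference rose by 1.6 ± 0.39 from 0 h to 24 h (adjusted p = 0.0183), and the change over time in Ikaros cells passed the F-test (adjusted p = 0.0231), whereas that in Control cells had an adjusted p of 0.638. The F-test of the interaction over all times had an adjusted p of 0.0873. The calls at 18 and 24 h held when any single library of those groups was left out, and ended when replicate 4 or replicate 5 was left out in all groups (adjusted p 0.0951 to 0.0999 at 18 h and 0.0887 to 0.135 at 24 h). The 6 h call was lost without Ikaros replicate 4, 5 or 6 or Control replicate 6 (adjusted p 0.0591 to 0.162), the 12 h call without replicate 5 or 6 of either line (0.07 to 0.141), the rise without Control 0 h replicate 6 (0.0514), and the change over time in Ikaros cells without Ikaros 0 h replicate 4 or 5 or Ikaros 24 h replicate 4 (0.051 to 0.156). With a whole replicate left out in all groups, the 6 h call ended for each replicate (limma adjusted p 0.0942 to 0.273). So did the rise (0.0639 to 0.12) and the time course in Ikaros cells (0.0675 to 0.476). The 12 h call then ended for replicate 5 or 6 (0.261 to 0.276). With the trends removed, the rise of 1.54 (0.0604) and the time course in Ikaros cells (0.0667) did not pass. With limma fitted to only the groups compared, the calls at 6, 12 and 18 h (adjusted p 0.134, 0.115 and 0.0544) and the rise (0.0512) ended.

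At the other Ets1 DHS the differences were smaller. The promoter DHS (chr9:32695709-32696244), at an inner annotated start +59.8 kb from the 5′ end, was higher in Ikaros cells at 0 h, with 5.34, 5.39 and 5.34 in Ikaros libraries and 4.25, 5.31 and 4.21 in Control libraries. That difference of 0.77 ± 0.22 (adjusted p = 0.0211) rested on the low Control replicates 4 and 6, whereas Control replicate 5 read like the Ikaros libraries. It lost its call without Control replicate 4 or 6 or Ikaros replicate 5 (adjusted p 0.0516 to 0.152) and with quantile normalization (0.0814), and it turned to -0.13 once level, GC and width trends were removed. At 24 h it was 0.32 ± 0.22 (adjusted p = 0.547). The intronic DHS at +32.0 kb, chosen after its values were seen, differed by -0.18 ± 0.28 at 0 h and by 0.86 ± 0.28 at 24 h (adjusted p = 0.115), with values of 4.85, 4.7 and 4.65 against 4.0, 3.68 and 3.95, so the groups did not overlap but the test was not passed.

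**Figure D4:**
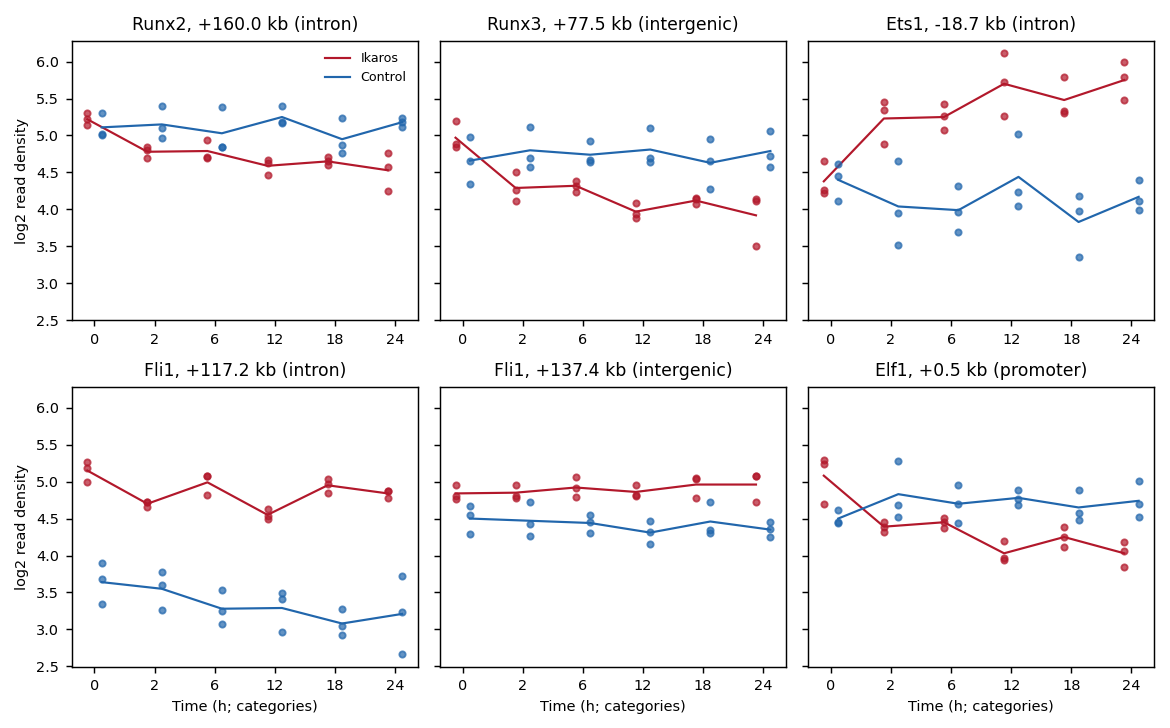
Log2 read density (y axis) at 6 times (x axis, hours as categories) of the 6 DHS past a limma adjusted p of 0.05 at 24 h, with a point for each library, red for Ikaros and blue for Control cells, and lines through the means of 3. The Ets1 DHS at -18.7 kb starts level and reaches 5.75 against 4.17, the Fli1 DHS at +117.2 kb is apart from 0 h on, and the Runx2, Runx3 and Elf1 DHS are lower in Ikaros cells at 24 h.

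Fli1, which encodes an Ets factor close to Erg, had the largest and steadiest difference of the set. The DHS at +117.2 kb (chr9:32425408-32425932), in an intron near the 3′ end of the gene, was higher in Ikaros cells at all 6 times, including 0 h. At 0 h the Ikaros libraries read 5.19, 5.0 and 5.26 and the Control libraries 3.34, 3.9 and 3.68. At 24 h they read 4.87, 4.78 and 4.87 against 3.23, 3.72 and 2.67. The groups did not overlap at any of the 6 times. Differences were 1.51, 1.15, 1.7, 1.27, 1.86 and 1.63 (each ± 0.21) from 0 h to 24 h, that is 2.84-fold at 0 h and 3.1-fold at 24 h.

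The limma adjusted p of the Fli1 +117.2 kb DHS was 0.000152, 0.0106, 3.49e-05, 0.00394, 8.2e-06 and 8.18e-05 at the 6 times. The difference did not pass a test of change from 0 h to 24 h (0.13 ± 0.29, adjusted p = 0.821), so this DHS separated the lines already in the cells without 4-OHT. Leaving out 1 library ended a call only at 2 h, without Ikaros replicate 4, 5 or 6 (adjusted p 0.0517 to 0.0899). With a whole replicate left out in all groups, the calls at 0, 6 and 18 h held, those at 2 and 12 h ended for each of the 3 (0.0847 to 0.152 and 0.0586 to 0.141), and that at 24 h ended for replicate 6 (0.0575). With limma fitted to only the groups compared, the calls at 0, 2, 6 and 12 h ended (adjusted p 0.124, 0.704, 0.0605 and 0.0981). Those at 18 and 24 h held. The other DHS of Fli1 that passed did so at single times. Downstream of the gene at +137.4 kb (chr9:32405233-32405743), Ikaros libraries read 5.07, 5.07 and 4.73 and Control libraries 4.45, 4.25 and 4.36 at 24 h.

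At this Fli1 DHS the 24 h difference was 0.61 ± 0.15 (adjusted p = 0.0377, and 0.0515 with the replicate block), and those at earlier times were between 0.34 and 0.54 and did not pass. It lost its call without any of the Control 24 h replicates or without Ikaros 24 h replicate 4 or 5 (adjusted p 0.0808 to 0.178). The DHS at +98.7 kb passed at 2 h alone, where Ikaros libraries read 3.95, 3.87 and 4.17 and Control libraries 2.69, 2.5 and 2.55. Those Control values at 2 h were far below the Control means of 4.02 at 0 h and 3.62 at 6 h, and the difference of 1.42 ± 0.31 (adjusted p = 0.0482, and 0.0554 with the replicate block) passed in 0 of 14 alternatives, including each fit without a single 2 h library (0.0531 to 0.201). Its sequence was soft-masked as repeats over 46.2% of its width. At +38.6 kb the 0 h difference was 0.53 ± 0.18 (adjusted p = 0.0427), and it remained between 0.4 and 0.61 at later times without passing. That call ended without Control 0 h replicate 4 or 6 or any Ikaros 0 h replicate (0.0568 to 0.226), with quantile normalization (0.32, adjusted p = 0.267) and with the trends removed (0.0853).

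The promoter DHS of Fli1 (chr9:32541347-32541477, +1.4 kb) stood at 5.58, 5.41 and 4.57 in Ikaros and 5.61, 5.05 and 5.77 in Control libraries at 24 h. The groups overlapped, and the difference was -0.29 ± 0.31 (adjusted p = 0.729). The most open DHS outside the promoter, at +2.6 kb, differed by -0.22 ± 0.23 at 24 h (adjusted p = 0.721). No call at Fli1 was at this promoter DHS.

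Runx1, whose protein is the main Runx factor of early B cell development, had no DHS past the threshold in any of the 10 comparisons, and its lowest limma adjusted p was 0.0592. At an unadjusted p under 0.05, 4 of its 14 DHS (28.6%) differed at 0 h, against 28.1% of all DHS, and 4 (28.6%) at 24 h, against 14.7%. Runx1 is transcribed from an upstream and an inner promoter, and both were open. At 24 h the upstream promoter DHS (chr16:92825861-92826390) read 5.78, 5.73 and 5.3 in Ikaros and 5.57, 5.68 and 5.41 in Control libraries. The groups overlapped, with a difference of 0.05 ± 0.17 (adjusted p = 0.941). At the inner promoter, DHS at +128.7 and +129.4 kb differed by -0.01 ± 0.21 and -0.1 ± 0.13 at 24 h. The DHS at +127.3 kb, the most open outside the promoters, was at 5.24 ± 0.21 in Ikaros and 5.7 ± 0.13 in Control cells (-0.46 ± 0.2, adjusted p = 0.263). The intronic DHS at +101.4 kb, chosen after its values were seen, differed by -0.09 ± 0.33 at 0 h and by 0.94 ± 0.33 at 24 h (adjusted p = 0.153), with Ikaros libraries at 4.55, 4.12 and 4.55 and Control libraries at 3.2, 2.99 and 4.21.

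Runx2, known best as the regulator of bone formation, had a weak promoter DHS and an intronic DHS that was lower in Ikaros cells after induction. Its promoter DHS (chr17:44736394-44736524), shared with the antisense gene Runx2os1, had a mean level of 3.37 over all libraries, below the median of 4.57 for all promoter DHS. At 24 h it read 2.88, 3.26 and 3.52 in Ikaros and 3.68, 3.56 and 2.51 in Control libraries, with a difference of -0.03 ± 0.49 (adjusted p = 0.988). The DHS at +160.0 kb (chr17:44654481-44655049) was lower in Ikaros cells, at 4.25, 4.58 and 4.76 against 5.18, 5.11 and 5.24 at 24 h. The Ikaros mean was 5.22 ± 0.08 (SD) at 0 h and 4.53 ± 0.26 at 24 h, and the Control mean 5.11 ± 0.17 and 5.18 ± 0.07.

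For the Runx2 +160.0 kb DHS the difference was 0.11 ± 0.16 at 0 h, -0.66 ± 0.16 at 12 h (adjusted p = 0.0319) and -0.65 ± 0.16 at 24 h (adjusted p = 0.0336), a level 1.57-fold lower in Ikaros cells. The change from 0 h to 24 h was -0.76 ± 0.22 (adjusted p = 0.0404), and it kept its call only without Control 0 h replicate 4 or Ikaros 24 h replicate 6 among the 12 single libraries (otherwise 0.0502 to 0.111). The 24 h call ended without any of the Control 24 h replicates or without Ikaros replicate 4 or 5 (adjusted p 0.07 to 0.216), and the 12 h call without Control replicate 5 or any Ikaros replicate (0.0758 to 0.15). The 3 calls also ended with quantile normalization (0.0844 at 12 h, 0.0542 at 24 h and 0.276 for the change, then -0.42) and with the trends removed (0.0883, 0.0869 and 0.156). A further intronic DHS at +141.8 kb, chosen after its values were seen, stood at 4.06, 3.99 and 4.42 in Ikaros and 4.73, 4.95 and 5.11 in Control libraries at 24 h. Its difference of -0.77 ± 0.21 had an adjusted p of 0.0573 and passed with quantile normalization, where the +160.0 kb DHS did not. The most open DHS of the locus was the promoter of Supt3, a gene of a transcription coactivator complex that overlaps Runx2 on the other strand (chr17:44776809-44777392). There Ikaros libraries read 5.47, 5.44 and 5.31 and Control libraries 4.45, 5.09 and 4.75 at 0 h, a difference of 0.64 ± 0.16 (adjusted p = 0.00923). It became -0.26 ± 0.16 at 24 h, a change of -0.9 ± 0.23 (adjusted p = 0.0214). The 0 h call ended without Control replicate 4 (adjusted p = 0.069), and the change without that library or Ikaros 24 h replicate 6 (0.053 to 0.0588). Both ended with quantile normalization, at 0.44 (0.0926) and -0.62 (0.129), and with the trends removed, at 0.03 (0.948) and -0.18 (0.765).

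Runx3, a Runx factor of lymphocytes and neurons, had a DHS beyond its 3′ end that was lower in Ikaros cells. The DHS at +77.5 kb (chr4:135197876-135198426) reaches over the edge of the 20 kb extension and lies between genes. At 0 h it read 5.19, 4.84 and 4.89 in Ikaros and 4.66, 4.98 and 4.35 in Control libraries. At 24 h it read 4.14, 3.51 and 4.12 against 4.58, 4.72 and 5.06. The groups overlapped at 0 h and not at 24 h. The difference was 0.31 ± 0.2 at 0 h, -0.84 ± 0.2 at 12 h (adjusted p = 0.0319) and -0.86 ± 0.2 at 24 h (adjusted p = 0.0258), a level 1.82-fold lower. The change of -1.18 ± 0.28 from 0 h to 24 h passed (adjusted p = 0.018), and so did the change over time in Ikaros cells (adjusted p = 0.0167), with an adjusted p of 0.992 in Control cells.

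The 24 h call of this Runx3 DHS ended without Control replicate 5 or 6 or Ikaros replicate 4 or 5 (adjusted p 0.0583 to 0.179), and the 12 h call without Control replicate 5 or any Ikaros replicate (0.0867 to 0.137). The change from 0 h ended without Control 0 h replicate 6 or Ikaros 24 h replicate 5 (0.0566 to 0.0569), and the change over time in Ikaros cells without Ikaros 0 h replicate 4 or 5 (0.0525 to 0.16). With the trends removed, the calls at 12 and 24 h (0.118 and 0.0826) and for the change (0.0782) ended. With a whole replicate left out in all groups, the calls at 12 h (limma adjusted p 0.126 to 0.316) and 24 h (0.116 to 0.3) ended for each replicate. So did the change from 0 h (0.0657 to 0.159) and that over time in Ikaros cells (0.146 to 0.459). With limma fitted to only the groups compared, the calls at 12 and 24 h and for the change ended (0.117, 0.0776 and 0.0834). Runx3, like Runx1, has an upstream and an inner start. The upstream promoter DHS (chr4:135120180-135120777) read 3.84, 4.24 and 4.27 in Ikaros and 4.7, 4.18 and 4.09 in Control libraries at 24 h, a difference of -0.21 ± 0.2 (adjusted p = 0.703). The inner promoter DHS at +31.8 kb was higher in Ikaros cells at 0 h by 1.61 ± 0.44 (adjusted p = 0.0157), but its Ikaros libraries were far apart at 3.31, 5.77 and 4.42, against 2.89, 2.36 and 3.42 in Control libraries. The lowest Ikaros library was below the highest Control library, and the call ended without replicate 5 of either line (0.0584 to 0.134), as it did with the trends removed, at 0.53 (0.56). At 24 h that difference was 0.37 ± 0.44. The most open DHS outside the promoters, an intronic one just upstream of that start, differed by -0.21 ± 0.28 at 24 h.

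Cbfb, the shared partner of the Runx proteins, showed a small promoter difference at 0 h. Its promoter DHS (chr8:105170283-105170797) read 5.22, 5.63 and 5.53 in Ikaros and 5.05, 4.73 and 4.67 in Control libraries at 0 h, which did not overlap, and 5.33, 5.21 and 5.1 against 5.43, 5.17 and 5.6 at 24 h, which did. The differences were 0.64 ± 0.17 (adjusted p = 0.0119) and -0.19 ± 0.17 (adjusted p = 0.672), and the change was -0.83 ± 0.24 (adjusted p = 0.0362). The mean of Ikaros cells went from 5.46 to 5.21 and that of Control cells from 4.82 to 5.4, so most of the change in value was in Control cells. The 0 h call ended without Control replicate 6 or Ikaros replicate 5 (adjusted p 0.0525 to 0.072). The change ended without Control 0 h replicate 6, Control 24 h replicate 4 or 6, Ikaros 0 h replicate 5 or 6 or any Ikaros 24 h replicate (0.0523 to 0.0926). Both ended with quantile normalization, at 0.44 (0.0541) and -0.47 (0.187), and with the trends removed, at 0.13 (0.66) and -0.11 (0.863).

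At the 3′ end of Cbfb, a DHS that overlaps the end of the gene (+47.4 kb, chr8:105217829-105218333) had the largest change among the 9 that passed, 1.99 ± 0.58 from 0 h to 24 h (adjusted p = 0.0397). Ikaros libraries read 3.85, 2.14 and 2.64 at 0 h and 4.65, 3.86 and 3.93 at 24 h, and Control libraries 3.96, 3.14 and 3.48 at 0 h and 2.83, 2.61 and 2.99 at 24 h. Its level of 3.39 was among the low ones, its replicates were widely spread, and it passed in 3 of 19 alternatives. Without a single library the call was kept only without Control 0 h replicate 5 or Ikaros 0 h replicate 4, and otherwise the adjusted p was 0.0561 to 0.0987. It was 1.61 (0.0944) with quantile normalization and 1.07 (0.357) with the trends removed. The most open other DHS in the Cbfb window, at the promoter of D230025D16Rik (+54.4 kb), differed by 0.02 ± 0.16 at 24 h.

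Elf1, an Ets factor of lymphoid cells, had the most DHS past the threshold at 0 h among the loci, 4 of 10, against 12.9% of all DHS. At an unadjusted limma p under 0.05 the count was also 4 of 10, against 28.1% of all DHS. By that count Erg (6 of 8), Cbfb (3 of 6) and Fli1 (7 of 15) had larger shares. The other loci had smaller ones, down to 0 of 4 at Ets2. The 4 Elf1 DHS past the adjusted threshold included a DHS in an intron of Wbp4 and the promoter of Sugt1, and none of them passed at 0 h with the trends removed. The start of Elf1 lies head to head with that of Wbp4, and 2 DHS cover this shared promoter. The inner one (+0.5 kb, chr14:79481379-79481982) read 5.24, 4.7 and 5.29 in Ikaros and 4.44, 4.45 and 4.62 in Control libraries at 0 h, and 4.18, 3.85 and 4.06 against 5.01, 4.52 and 4.7 at 24 h. Ikaros libraries were thus all above the Control libraries at 0 h and all below them at 24 h. The difference was 0.57 ± 0.18 at 0 h (adjusted p = 0.0374), -0.75 ± 0.18 at 12 h (0.038) and -0.71 ± 0.18 at 24 h (0.0461, and 0.0534 with the replicate block). The change of -1.29 ± 0.26 passed (adjusted p = 0.00894), as did the interaction with time (0.0371, and 0.0508 with the block) and the change over time in Ikaros cells (0.00829). Control cells had an adjusted p of 0.857 over time.

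The change of this Elf1 DHS held whichever of its 12 libraries was left out, and that over time in Ikaros cells ended without Ikaros 0 h replicate 4 (adjusted p = 0.0874). With a whole replicate left out in all groups, the change ended for replicate 4 or 6 (limma adjusted p 0.09 to 0.0942). The change over time in Ikaros cells then ended for each replicate (0.174 to 0.348). The calls at 0, 12 and 24 h were weaker. Those at 12 and 24 h ended whichever of their 6 libraries was left out (0.0592 to 0.157 and 0.0559 to 0.207), and that at 0 h without any of them but Ikaros replicate 5 (0.0711 to 0.137). The interaction ended without 14 of the 36 libraries, namely any Control 0 h replicate, Control 24 h replicate 4, Ikaros 0 or 12 h replicate 4 or 6, Ikaros 2 or 6 h replicate 5 or 6, or Ikaros 24 h replicate 5 or 6 (adjusted p 0.0505 to 0.11). With level, GC and width trends removed, the 0 h difference turned to -0.12 and the change became -0.55 (0.418), and the calls at 12 h (0.256) and 24 h (0.146), for the interaction (1.0) and for time in Ikaros cells (0.947) ended. With quantile normalization those at 0 h (0.126), at 12 h (0.0519) and for the interaction (0.0783) ended. The outer DHS of the shared promoter (-0.1 kb, chr14:79480860-79481364) read 4.81, 5.0 and 4.82 in Ikaros and 3.61, 3.68 and 2.84 in Control libraries at 0 h, a difference of 1.5 ± 0.21 (adjusted p = 0.000172). By 24 h the difference was 0.23 ± 0.21. The change was -1.26 ± 0.3 (adjusted p = 0.017), which ended without Control 0 h replicate 6 (0.0569), the replicate with the lowest value. With a whole replicate left out in all groups, the change ended for each replicate (limma adjusted p 0.0785 to 0.111), while the 0 h call held. The interaction had an adjusted p of 0.0406, and 0.0593 with the block. It held without 15 of the 36 libraries, and ended without Control 0 or 24 h replicate 4 or 6, Control 12 h replicate 5 or 6, any Ikaros replicate of 0, 2, 12 or 24 h, Ikaros 6 h replicate 5 or Ikaros 18 h replicate 5 or 6 (0.0503 to 0.167). With the trends removed the 0 h difference was 0.64 and did not pass (0.0643), and the change was -0.41 (0.534). The interaction ended with the trends removed (1.0) and with quantile normalization (0.0611). At a further Elf1 start, +34.4 kb, the 24 h difference was 0.23 ± 0.18 (adjusted p = 0.617).

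Upstream of Elf1, a narrow DHS at -13.4 kb in an intron of Wbp4 (chr14:79467770-79467900) was the only member that passed the test with a lower level in Ikaros cells at 0 h. Ikaros libraries read 2.37, 1.95 and 3.14 and Control libraries 4.27, 4.05 and 3.66, a difference of -1.5 ± 0.35 (adjusted p = 0.00581), or 2.84-fold lower. From 2 h on the differences were between -0.59 and 0.25 and did not pass, and the change over time in Ikaros cells passed (adjusted p = 0.0296). That call ended without Ikaros 0 h replicate 4 or 5 or Ikaros 12 h replicate 5 or 6 (0.0575 to 0.201), with quantile normalization (0.0562) and with the trends removed (0.371), where the 0 h difference was -1.06 (0.0703). The promoter of Sugt1, the next gene downstream (+106.3 kb, chr14:79587113-79587958), was the most open DHS of the window and was higher in Ikaros cells at 0 h by 0.6 ± 0.14 (adjusted p = 0.00514). Its difference was -0.2 ± 0.14 at 24 h, a change of -0.8 ± 0.19 (adjusted p = 0.0187), which ended without Control 0 h replicate 6 (0.051). Both calls ended with quantile normalization, at 0.34 (0.0816) and -0.39 (0.194), and with the trends removed, at 0.1 (0.707) and -0.13 (0.802).

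Erg and Ets2 are Ets genes that lie near each other on chromosome 16. No Erg DHS lay within 1000 bp of an annotated start of the gene. Its most open DHS (+156.5 kb, intron) read 4.65 on average and differed by -0.3 ± 0.28 at 24 h. The intronic DHS at +180.9 kb (chr16:95405631-95405761, 130 bp) was higher in Ikaros cells at 0 h by 0.82 ± 0.28 (adjusted p = 0.0488, and 0.0616 with the replicate block) and at 6 h by 1.37 ± 0.28 (adjusted p = 0.0179). At 6 h Ikaros libraries read 3.91, 4.1 and 4.45 and Control libraries 3.18, 2.67 and 2.48. Control means went 3.78, 4.49, 2.78, 4.0, 4.06 and 3.96 over the 6 times, so the 6 h Control value stood apart from its neighbours.

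The Erg +180.9 kb DHS passed the interaction with time (adjusted p = 0.0291) and the change over time in Control cells (0.0389, and 0.0709 with the block). The 0 h call held only without Control replicate 5 among single libraries (otherwise 0.0582 to 0.302), and the 6 h call ended without replicate 5 or 6 of either line (0.0579 to 0.145). The interaction ended without Control 0 h replicate 6, Ikaros 0 h replicate 4, Ikaros 6 h replicate 5 or 6 or Ikaros 12 h replicate 4 (0.0529 to 0.0635). The change in Control cells ended without Control 0 h replicate 6, 2 h replicate 4 or 6 h replicate 5 or 6 (0.0569 to 0.126). With quantile normalization the 0 h call (0.0528) and that in Control cells (0.217) ended, and with the trends removed the 0 h call (0.125) and the interaction (0.0934). Ets2 had 4 DHS and no call in the 10 comparisons by limma, with a lowest adjusted p of 0.154 and 0 of 4 at an unadjusted p under 0.05 at 0 h and at 24 h, against 28.1% and 14.7% of all DHS. Of its promoter DHS, the one at -0.2 kb differed by -0.44 ± 0.22 at 24 h (adjusted p = 0.343), and that at +0.3 kb stood at 3.95, 3.6 and 3.64 in Ikaros and 3.36, 3.82 and 3.37 in Control libraries at 24 h (0.21 ± 0.4, adjusted p = 0.869), and the DHS at +26.9 kb differed by 0.1 ± 0.19.

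The higher promoters at 0 h were read against promoters in general. The 23 promoter DHS in the set had a median difference of 0.35 at 0 h and a median change of -0.48 to 24 h, and all 13657 promoter DHS had 0.34 and -0.42. For the 66 other DHS the medians were 0.1 and -0.04, against -0.19 and 0.31 for all others. Of the 10 DHS higher at 0 h, 7 were promoter DHS of some gene. The share of promoter DHS among all DHS higher at 0 h was not counted, so the 7 cannot be set against it. With level, GC and width trends removed, 2 DHS passed at 0 h, both at Fli1, and none passed for the change to 24 h. The promoter medians of the loci were thus near those of all promoter DHS.

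The windows were cut at 20 kb, and DHS just outside were compared once. The next DHS beyond each edge, 18 in all, had levels of 3.04 to 5.12 and 24 h differences of -0.94 to 1.18, and 2 of them passed. One lay 2.87 kb beyond the upstream edge of Ets1 and differed by 1.18 ± 0.18 (adjusted p = 0.000726), near the member at -18.7 kb that differed by 1.58. The other lay 5.36 kb beyond the downstream edge of Runx3 and differed by -0.94 ± 0.21 (adjusted p = 0.0238), near the member at +77.5 kb that differed by -0.86. A DHS 10.9 kb beyond the 3′ edge of Fli1 differed by 0.92 ± 0.28 (adjusted p = 0.0941).

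Other genes of the pathways were read at their promoters. The shares of all DHS set beside these lists include DHS outside promoters, and shares of promoter DHS alone were not counted. All promoter DHS had a median difference of 0.34 at 0 h, against -0.19 for all others. The scaling alternatives were not read for these genes. Of 21 other Ets factors, 16 had a promoter DHS, with 24 DHS in all. At 0 h, 4 of the 24 passed as higher in Ikaros cells, where 7.81% of all DHS did. They were at Elk4 (0.9 ± 0.2 and 0.57 ± 0.18), Elf2 (1.38 ± 0.25, limma adjusted p = 0.000973) and Erf, an Ets repressor (1.14 ± 0.22, adjusted p = 0.00183). No other Ets factor passed from 2 h to 24 h or for the change, by limma, where 0 of the 24 had an unadjusted p under 0.05 at 24 h, against 14.7% of all DHS, and 10 (41.7%) had one for the change, against 25.1%. The median difference of the 24 was 0.5 at 0 h and -0.02 at 24 h, against 0.34 and -0.05 for all promoter DHS. Spi1, which encodes PU.1, differed by 0.48 ± 0.19 at 0 h (adjusted p = 0.084) and by 0.03 ± 0.19 at 24 h, and Gabpa by 0.02 ± 0.17 at 24 h.

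Of 12 Runx partners and corepressors, 7 had 1 promoter DHS each, and 3 passed as higher at 0 h, where 7.81% of all DHS did. These were Cbfa2t2, an ETO family corepressor (0.88 ± 0.18), Hipk2, a kinase (1.05 ± 0.23), and Kat6a, a histone acetyltransferase (1.13 ± 0.22). The median 0 h difference of the 7 was 0.51, against 0.34 for all promoter DHS. For the partners and the targets below too, shares of promoter DHS alone were not counted and the scaling alternatives were not read. Kat6a passed also for the change to 24 h (-1.58 ± 0.31, adjusted p = 0.00758) and for the interaction (adjusted p = 0.019). No partner passed from 2 h to 24 h, with 1 of 7 (14.3%) at an unadjusted p under 0.05 at 24 h, against 14.7% of all DHS. Of 11 known targets of these factors in B-lineage cells, 8 had 1 promoter DHS each. None passed at any single time, with 0 of 8 at an unadjusted p under 0.05 at 0 h, against 28.1% of all DHS, and 4 (50.0%) at 24 h, against 14.7%. Pax5, which holds B cell identity, passed for the change (-1.02 ± 0.28, adjusted p = 0.0292). Its 24 h difference was -0.72 ± 0.19 (adjusted p = 0.0567), and that of Igll1, a surrogate light chain gene, was -0.77 ± 0.2 (adjusted p = 0.0524).

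The promoters most like those of Runx1 and Ets1 over the 36 libraries were sought among the other promoter DHS, as a description of libraries that share their processing. For the Runx1 upstream promoter the highest Pearson correlations were 0.803 (Babam2 and Rbks, which share a promoter), 0.755 (Plod3 and Znhit1) and 0.74 (Vrk3 and Zfp473). For the Ets1 promoter they were 0.889 (Ptpn2), 0.876 (B3glct) and 0.874 (Tmcc1). None of the 6 is a promoter of the Runx or Ets families.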

How the data were processed

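DNase-seq libraries of the Ikaros and Control lines, 3 replicates at each of 6 times, were used as a single table of 52788 DHS. According to the study's methods, the authors trimmed reads to 36 bp and used Bowtie2 for alignment to mm10, then called narrow and broad peaks per replicate with HOMER, merged them into consensus DHS, counted reads with bedtools, left out DHS with fewer than 10 reads, scaled the counts by RPKM followed by TMM, and applied ARSyN against unwanted variation. Versions are not given in the sources used here. The deposited values are log2 of normalised density. The base was settled from the values, and the depth of each library is not in the table, although the methods state a minimum for all. ARSyN models the groups, so spreads may be smaller than in raw counts. DHS starts are printed as deposited, and whether they count from 0 or 1 was not settled.

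DHS were annotated with GENCODE vM21. Groups were compared with limma 3.58.1 in R 4.3.3, two-sided, with 12 group means over 36 libraries, an intensity trend and Benjamini-Hochberg adjustment over all DHS at 0.05. The 10 comparisons were the 6 line differences, the change of the line difference from 0 h to 24 h, and F-tests of the interaction and of time in each line. The fits were tested on simulated data. Python 3.11.15, pandas 2.3.3, numpy 2.4.6, pysam 0.24.0 and matplotlib 3.10.9 were used for the rest. Named were, per gene, its promoter DHS and the most open other DHS, per comparison up to 3 DHS with the largest difference in each direction among those past the threshold, and others as marked. The members, lists and rules were chosen with earlier results of these data known. Alternatives were quantile normalization, removal of the trends of the values with level, GC and width, a replicate block, leaving out the lowest 25% of DHS, fits of only the groups compared, no extension of gene bodies, and leaving out single libraries or replicates.

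Replicate numbers mark batches in the labels, so they pair the libraries. Deviations of same-numbered libraries from their group means had a median correlation of -0.0103 over 198 pairs (12.12% above 0.1), and those of other pairs 0.0079 over 396 (15.15%). The main fit has no batch term and does not use this pairing, which the replicate block does. Its p-values measure the spread left after ARSyN between libraries of a group, each from another batch, in transduced populations of 1 cell line.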

Additional observations from a re-analysis of the deposited data

Results flagged for a closer look

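At 9 DHS the difference between the lines at 24 h differed from that at 0 h by limma's test of the change. The change was -0.9 at Runx2 +37.7 kb, -0.76 at Runx2 +160.0 kb, -1.18 at Runx3 +77.5 kb, -0.83 at the Cbfb promoter and 1.99 at Cbfb +47.4 kb. It was 1.6 at Ets1 -18.7 kb, -1.26 at Elf1 -0.1 kb, -1.29 at Elf1 +0.5 kb and -0.8 at Elf1 +106.3 kb. The F-test of the interaction over all times, also by limma, gave an adjusted p of 0.0291 at Erg +180.9 kb, 0.0406 at Elf1 -0.1 kb and 0.0371 at Elf1 +0.5 kb.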

How the results depend on the processing

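Counts of member DHS past the threshold were 11, 2, 3, 5, 2 and 6 from 0 h to 24 h, 9 for the change, 3 for the interaction, 4 for the Ikaros time course and 1 for the Control one. With quantile normalization they were 4 at 0 h, 1 at 2 h, 5 for the change, 1 for the interaction and 0 for the Control time course. With trends removed they were 2 at 0 h, 1 at 2 h, then 2, 4 and 3 from 12 h to 24 h, 0 for the change and the interaction and 1 for the Ikaros time course. With the lowest DHS left out they were 1 at 2 h and 0 for the Control time course. With only the groups compared they were 0 at 0, 2, 6 and 12 h, 1 at 18 h, 3 at 24 h, 0 for the change, 9 for the Ikaros time course and 0 for the Control one. Without the extension they were 3 at 12 h, 1 at 18 h, 3 at 24 h and 1 for the Ikaros time course, since fewer DHS were counted. Other causes were not tested. With a replicate or library left out they ranged from 4 to 10, 0 to 2, 1 to 3, 0 to 4, 1 to 3 and 1 to 5 at the 6 times, 0 to 10 for the change, 0 to 7 for the interaction, 0 to 5 for the Ikaros time course and 0 to 2 for the Control one. The shares of all DHS under these settings were not read, so a fall in a count cannot be set against the background.

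With the replicate block 1 DHS passed at 2 h, 1 for the interaction and 0 for the Control time course, and beyond the calls given beside their results it ended no call among the DHS called without it. Few calls held whichever replicate was left out in all groups. They were those of Fli1 +117.2 kb at 0, 6 and 18 h and of Elf1 -0.1 kb at 0 h.

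Directions turned at DHS that had not passed at 24 h. With trends removed the Cbfb promoter went to 0.02 and Ets2 +0.3 kb to -0.11, or 0.0 with quantile normalization. Of the 0 h calls, the Ets1 promoter went to -0.13 and Elf1 +0.5 kb to -0.12 with trends removed. With a replicate or library left out, 24 h differences ranged from -0.04 to 0.2 at the Runx1 upstream promoter, -0.55 to 0.36 at the Runx2 promoter, -0.4 to 0.12 at the Runx3 upstream promoter, -0.13 to 0.16 at Cbfb +54.4 kb, -0.14 to 0.35 at Ets2 +26.9 kb, -0.62 to 0.16 at the Fli1 promoter, -0.53 to 0.06 at Fli1 +2.6 kb and -0.65 to 0.2 at Erg +156.5 kb. The table holds no counts per DHS, so no counting interval could be given.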
